A study of Mus musculus with 44 samples.

Results

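The genes described here are the fragile X family, Fmr1, Fxr1 and Fxr2, and the CYFIP pair, Cyfip1 and Cyfip2. They were found by their mouse symbols in the RNA-seq, ribosome-profiling and poly(A)-tail files, which list genes by RefSeq accession. All 5 were present, among 17126 genes in all, of which 16979 accessions carried a symbol in the RefSeq annotation of GRCm38.p6. All 5 passed the minimum of 10 RPM in RNA-seq in each of the 12 cultures and tissues.

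Fmr1 encodes FMRP, an RNA-binding protein of neurons that associates with ribosomes and is known for repressing the translation of the mRNAs that it binds. Its silencing causes fragile X syndrome. Fxr1 and Fxr2 encode its autosomal paralogs, with similar RNA-binding domains. Cyfip1 and Cyfip2 encode cytoplasmic FMRP-interacting proteins. Each can be built into the WAVE regulatory complex, which passes signals from the GTPase Rac1 to actin, and CYFIP1 has also been described as an FMRP partner that binds the cap-binding protein eIF4E and holds back translation at synapses.

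The 44 samples came from C57BL6J mice and comprised 12 RNA-seq, 12 ribosome-profiling and 20 poly(A)-tail libraries. The tissues were hippocampus of adult male mice, hippocampus of embryos (E16, sex not determined) and cortex of adult male mice. The 9 cultures were primary neurons from the cortex of newborn pups of either sex, treated with AraC against dividing cells. An untreated culture and cultures given BDNF or glutamate with glycine (glu/gly) for 30 min were harvested after 14 days in vitro (DIV14). An untreated culture and cultures given KCl for 10 or 30 min were harvested at DIV10. A further 3 cultures, harvested at DIV14, had received lentivirus at DIV5 that expressed GFP from a synapsin promoter, which is active in neurons. It expressed GFP alone in 1 culture, with miR-1 in another and with miR-155 in the third, each miRNA from the 3′ UTR of GFP. In the light experiment, 8 mice of 6 to 7 weeks spent 1 week in darkness, and the visual cortex was taken from 4 of them directly (0 h) and from 4 after 1 h of light. For the cultures and tissues every assay was done with 1 library, so none of their differences has a replicate check, no p-value is given for them, and their intervals cover counting error only. Stimuli at DIV14 were each compared with 1 shared control, as were both KCl times at DIV10 and both miRNAs with GFP.

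RNA-seq libraries held 448022 to 7689624 reads on genes, ribosome-profiling libraries 817114 to 23212489 ribosome-protected fragments (RPFs), and tail libraries 86841 to 4812273 tags. The 6 neuronal markers summed to between 3472 and 4377 reads per 1000000 reads on genes in every RNA-seq library, and all were above 0, but single markers moved apart. In adult over embryonic hippocampus Snap25 stood at 24.1-fold, Syt1 at 9.39-fold and Rbfox3 at 4.47-fold, and Tubb3 and Stmn2 at 0.15- and 0.33-fold. In adult cortex over the DIV14 control Snap25 stood at 3.83-fold, Syt1 at 3.33-fold and Tubb3 at 0.27-fold. The 6 astrocyte markers summed to 745 in embryonic hippocampus, 957 to 1930 in cultures and 3186 and 3657 in adult hippocampus and cortex. The 5 oligodendrocyte markers summed to 34.5 in the embryo, 46.1 to 100.7 in cultures and 1510 and 1808 in the adult tissues, and Mog was at 0 in the embryo. For the 6 genes of progenitors and immature neurons the sums were 2556 in the embryo, 232 to 908 in cultures and 57.4 and 64.9 in the adult tissues. The 5 microglia markers summed to 0.47 to 36.1 in cultures and 71.3 to 348 in tissues. These differences in cell makeup run along with every comparison between tissues or of tissue with culture below, and their part in those comparisons was not tested. In such mixed samples, fewer cells of a type and less RNA per cell cannot be told apart.

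The pair Cyfip1 and Cyfip2 have coding sequences of equal length, 3762 nt, and their alignment had 77.7% identical bases over 3759 aligned bases. A stretch of the coding sequence, from position 993 to 1052, is shown because it holds the longest run of identical bases between them, 24 nt, and so shows how far short reads can tell the paralogs apart. Capitals mark the 12 bases at which they differ. The reference is RefSeq on GRCm38.p6, chr7:55887822-55887881 on the plus strand for Cyfip1 and chr11:46270610-46270669 on the minus strand for Cyfip2, each within 1 coding exon.
Cyfip1: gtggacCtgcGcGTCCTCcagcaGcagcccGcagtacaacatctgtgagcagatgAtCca
Cyfip2: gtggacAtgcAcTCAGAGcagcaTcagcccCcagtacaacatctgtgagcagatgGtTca
No window of 28 nt, about the length of an RPF, was shared between these coding sequences, nor between any pair of the fragile X family, whose longest shared runs were 14 nt for Fmr1 with Fxr1, 14 nt for Fmr1 with Fxr2 and 20 nt for Fxr1 with Fxr2. Their aligned coding bases were 66.4%, 65.6% and 69.0% identical in the same order. The authors kept uniquely mapping reads, so the 5 genes were counted apart from each other.

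Fmr1 lies on chromosome X, from 68678541 to 68717963 on the plus strand, with 17 exons, a CDS of 1845 nt and a 3′ UTR of 2288 nt. Fxr1 lies on chromosome 3, from 34020079 to 34069345 (plus strand), with 17 exons, a CDS of 2034 nt and a 3′ UTR of 258 nt. Fxr2 lies on chromosome 11, from 69632971 to 69653297 (plus strand), with 17 exons, a CDS of 2025 nt and a 3′ UTR of 598 nt. These 3 paralogs thus share their exon number and differ in the 3′ UTR. Cyfip1 spans 55842071 to 55932633 of chromosome 7 (plus strand) in 32 exons and Cyfip2 spans 46193849 to 46312358 of chromosome 11 (minus strand) in 31, with 3′ UTRs of 2471 and 2451 nt. The share of codons that end in G or C separated the paralogs within both families. It was 34.9% in Fmr1 and 33.2% in Fxr1, at percentiles 1.46 and 0.902 of 16955 genes, but 56.7% in Fxr2, and it was 62.1% in Cyfip1 and 74.0% in Cyfip2, the latter at percentile 89.7.

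The miRNA delivered to 1 of the transduced cultures, miR-155-5p, is shown with its seed (bases 2 to 8) in capitals, since it sets which 3′ UTRs were searched for sites.
miR-155-5p: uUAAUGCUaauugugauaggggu
No 7mer or 8mer match to this seed was found in the annotated 3′ UTRs of the 5 genes, whereas 11.9% of 16845 annotated 3′ UTRs held one. Sites of miR-1 were not searched. The cytoplasmic polyadenylation element, searched on the sense strand as TTTTAT or TTTTAAT, occurred 4 times in the 3′ UTR of Fmr1, 4 times in that of Cyfip1, 1 time in that of Cyfip2 and not in those of Fxr1 and Fxr2, and 56.4% of 3′ UTRs held at least 1.

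Levels between genes are compared per length, as reads per kilobase of counted CDS per 1000000 reads on genes (RPKM). Among the 5 mRNAs, Cyfip2 had the widest range over the 12 RNA-seq libraries, 13.7-fold. Its level was 83.6 in embryonic hippocampus, 401 in adult hippocampus and 435 in adult cortex. In the DIV10 cultures it was 55.0 without KCl, 53.3 after 10 min and 48.3 after 30 min. In the DIV14 cultures it was 31.8 in the control, 38.8 with BDNF, 74.3 with glu/gly, 54.7 with GFP lentivirus, 56.2 with miR-1 lentivirus and 53.1 with that for miR-155. Both adult tissues stood far above all other samples, and the cultures lay below the embryonic hippocampus in RNA-seq. The counting interval of the highest culture, glu/gly (63.5 to 86.5), reached into that of the embryo (80.2 to 87.0). Tags put the embryo below the cultures instead, at 92.1 per 1000000 tags, from 8 tags, against 280 to 371. RPFs did so too, at 46.8 RPKM against 82.9 to 151. RNA of the embryo was poly(A)-selected.

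The other 4 mRNAs varied by 1.68- to 2.52-fold. Cyfip1 ranged from 42.0 to 85.3 RPKM in the 9 cultures with a median of 54.0, and was at 52.6, 64.1 and 61.0 in embryonic hippocampus, adult hippocampus and adult cortex. Fmr1 ranged from 39.7 to 72.0 in cultures (median 51.5) and was at 63.5, 46.4 and 57.0 in the same tissues. Its tissue values lay inside the range of its culture values. In RNA-seq Fxr1 was the fragile X paralog with the clearest split, at 91.1 to 156 in cultures (median 110.0). Its mRNA was at 79.1, 62.0 and 61.9 in the tissues, so that every culture lay above every tissue. The other counts did not show this split. By share of tags, embryonic hippocampus, from 10 tags, lay above every culture. Adult cortex lay inside the range of the cultures, and adult hippocampus, from 4 tags, lay below it. Fxr1 RPFs overlapped, at 37.5 to 54.4 RPKM in cultures and 62.8, 47.6 and 37.1 in the tissues. Fxr2 mRNA ranged from 72.5 to 106.2 in cultures (median 84.2). It was at 122, 108 and 79.4 in the tissues, which overlapped the cultures.

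Within the fragile X family Fmr1 mRNA was at the lowest level of the 3 in each of the 12 RNA-seq libraries, at 15.8% to 28.8% of the family sum. Neighbours in this order often did not differ beyond counting error. In the DIV14 control, for example, the interval of Fmr1 (37.8 to 68.4) overlapped that of Fxr2 (61.4 to 96.9), which overlapped that of Fxr1 (90.5 to 132). Tail tags gave another order. By tags Fxr1 was below Fmr1 in every culture, in adult hippocampus and in every mouse of the light experiment. It was above Fmr1 in embryonic hippocampus and adult cortex. The DIV14 control had 65 tags of Fmr1 and 29 of Fxr1. Within the CYFIP pair the order in RNA-seq changed with the sample, whereas by tail tags Cyfip2 was above Cyfip1 in every culture and tissue. The DIV14 control had 373 tags of Cyfip2 and 86 of Cyfip1, and embryonic hippocampus had 8 and 6. By RNA-seq per length the shares were as follows. Cyfip2 made up 61.4% of the pair in embryonic hippocampus, 86.2% in adult hippocampus and 87.7% in adult cortex, but 37.0% to 62.9% in the cultures.

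RPFs, which count ribosomes on the CDS, gave another order. Fmr1 had 20.8 to 36.0 RPKM of RPFs in the 7 cultures with assigned libraries, 50.9 in embryonic hippocampus, 28.4 in adult hippocampus and 27.3 in adult cortex. Fxr1 had 37.5 to 54.4 in cultures and 62.8, 47.6 and 37.1 in these tissues, and Fxr2 35.5 to 42.9 in cultures and 49.9, 65.4 and 37.9 in the tissues. Cyfip1 had 40.4 to 73.3 in cultures and 74.5, 66.4 and 44.7 in the tissues. Cyfip2 had 82.9 to 151 RPKM of RPFs in cultures, 46.8 in embryonic hippocampus, 221 in adult hippocampus and 202 in adult cortex. Its RPF level was thus the highest of the 5 in all 7 cultures and both adult tissues and the lowest of the 5 in embryonic hippocampus, where Cyfip2 made up 38.6% of the CYFIP RPFs per length.

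**Figure D1:**
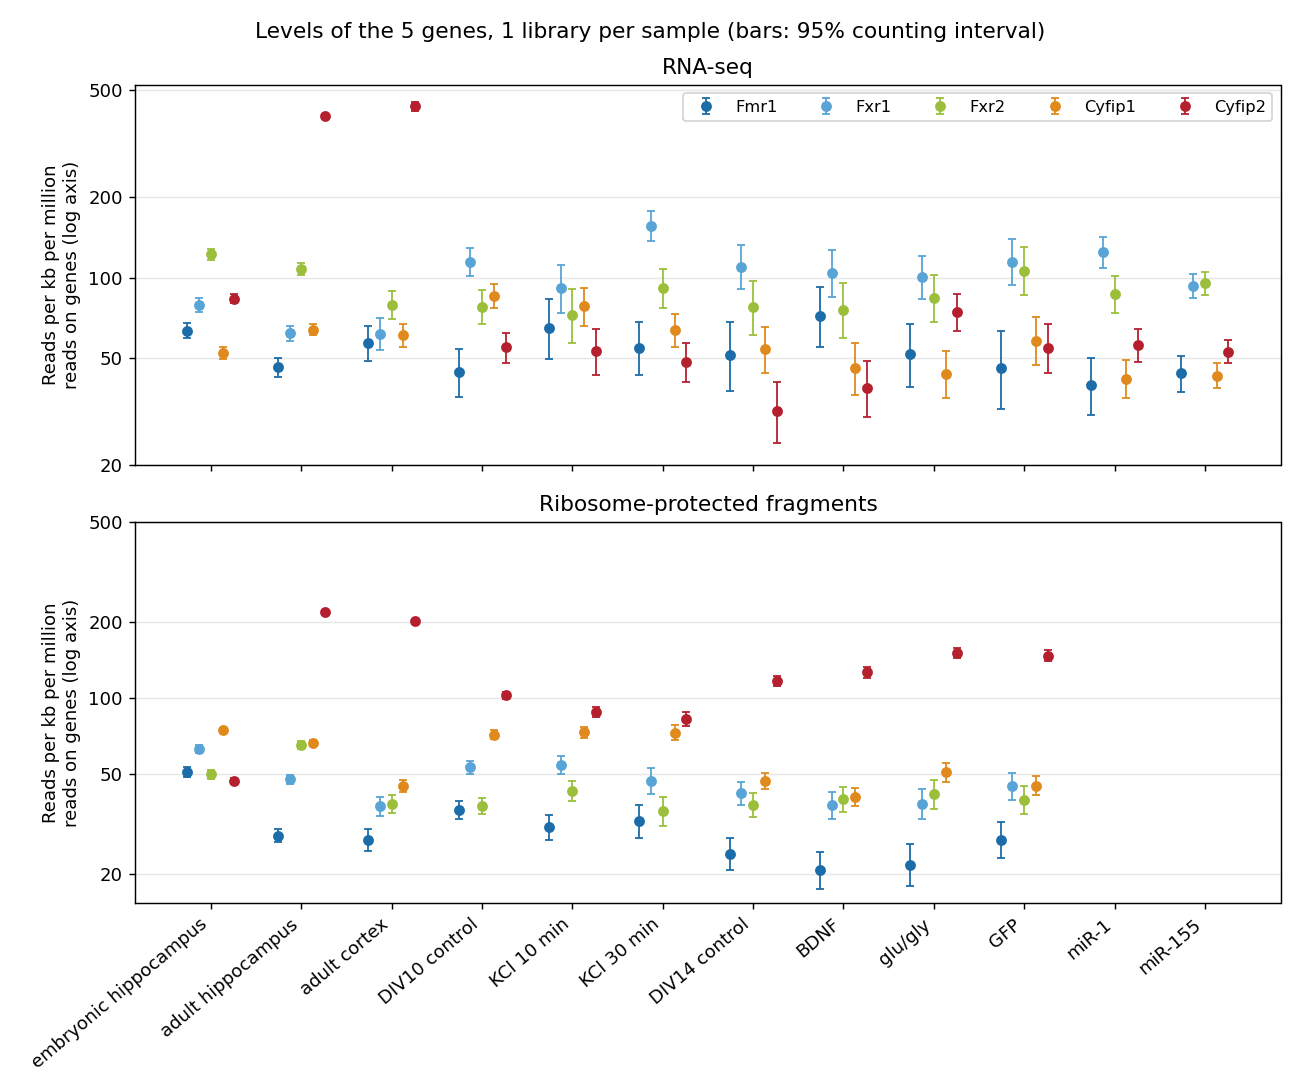
Level of each of the 5 genes in RNA-seq (top) and among RPFs (bottom), in reads per kilobase per 1000000 reads on genes on a log axis, for each culture and tissue with 1 library each; bars are 95% counting intervals. Cyfip2 mRNA stands at 401 and 435 in the adult tissues and at 31.8 to 74.3 in the cultures, whereas its RPFs reach 82.9 to 151 in the cultures.

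Adult and embryonic hippocampus were compared to follow the genes through development. Here and in the other comparisons without replicates, a difference is called past the threshold at 1.5-fold either way, on each gene's share of the reads on genes. Cyfip2 mRNA was 4.80-fold higher in the adult (counting interval 4.59 to 5.02, from 2385 to 10837 reads), and it was the only 1 of the 5 mRNAs past 1.5-fold, against 55.6% of all genes compared. Cyfip1 mRNA stood at 1.22-fold (1.14 to 1.31), and Fmr1, Fxr1 and Fxr2 at 0.73-, 0.78- and 0.89-fold. The median ratio over all genes was 0.89, so Fxr2 lay at the median of the transcriptome. With the authors' RPM Fmr1 and Fxr1 were past the threshold too, at 0.58- and 0.63-fold, and Cyfip2 stood at 3.84-fold.

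Ribosome occupancy followed the mRNA for Cyfip2, at 4.71-fold (4.55 to 4.88). Fmr1 RPFs were lower in the adult, at 0.56-fold (0.52 to 0.60), and these 2 genes were past 1.5-fold against 67.3% of all genes. Fxr2 RPFs stood at 1.31-fold, Cyfip1 at 0.89-fold and Fxr1 at 0.76-fold. Translational efficiency (TE) is the ratio of RPFs to mRNA, compared after subtracting the median difference of all genes in log2. By this measure Fxr2 was 1.54-fold higher in the adult (1.42 to 1.68), the only 1 of the 5 past 1.5-fold, against 44.7% of all genes. TE of Cyfip2 was at 1.03-fold (0.97 to 1.08), of Fxr1 at 1.01, of Fmr1 at 0.80 and of Cyfip1 at 0.76.

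Tags from the tail libraries give a separate count of the same mRNAs. The Cyfip2 tag level was 6.56-fold higher in the adult (3.23 to 15.5), from 8 and 134 tags. The embryonic library held 4 to 10 tags for each of the 5 genes, so the other ratios had wide intervals and tail lengths could not be compared at this depth.

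Adult cortex and adult hippocampus, compared as regions of the adult brain, gave nearly equal Cyfip2 levels. The RNA ratio of cortex over hippocampus was 1.08 (1.04 to 1.13) and none of the 5 was past 1.5-fold, against 35.3% of all genes. Among RPFs Fxr2 stood at 0.58-fold (0.53 to 0.63), the only 1 past 1.5-fold against 35.8% of all genes, and the other 4 lay between 0.67- and 0.96-fold. No TE difference of the 5 was past 1.5-fold, against 34.8% of all genes, with values from 0.72-fold for Cyfip1 to 0.85-fold for Cyfip2. These RNA values depend on the scaling, since cortical RNA had been depleted of ribosomal RNA and hippocampal RNA poly(A)-selected. With the authors' RPM the ratios were 0.48-fold for Fxr2, 0.62 for Cyfip1, 0.65 for Fxr1, 0.71 for Cyfip2 and 0.81 for Fmr1, so that Cyfip2 and Fmr1 turned from above 1 to below 1. The tags, which came from TAIL-seq in cortex and PAL-seq v2 in hippocampus, gave 1.78-fold (1.47 to 2.16) for Cyfip2 and 0.62-fold (0.43 to 0.91) for Fxr2. For Fmr1 they gave 0.04-fold (0.01 to 0.15), from 3 and 25 tags, where RNA-seq gave 1.23 (1.03 to 1.46).

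Adult cortex was set beside the untreated DIV14 culture, a preparation enriched for neurons. Cyfip2 mRNA was 13.7-fold higher in the tissue (10.6 to 18.0), from 60 reads in the culture and 2757 in the cortex. Cyfip2 RPFs were 1.72-fold higher (1.63 to 1.81), and its tags 3.00-fold higher (2.64 to 3.42). All 3 counts were higher in the tissue, and they differed in size beyond their counting intervals. Fxr1 mRNA was lower in the tissue by RNA-seq, at 0.56-fold (0.45 to 0.72). Its tags were 15 of 599907 in the cortex and 29 of 1042761 in the culture, which are similar shares. Its RPFs were at 37.1 RPKM in the cortex and 42.0 in the culture, with overlapping counting intervals. The RNA ratios of Fmr1, Fxr2 and Cyfip1 were 1.11, 1.02 and 1.13, with intervals that include 1. Thus 2 of the 5 were past 1.5-fold in RNA-seq against 50.6% of all genes, and 1, Cyfip2, among RPFs against 29% of all genes.

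TE of Cyfip2 was 0.11-fold in the cortex relative to the culture (0.09 to 0.14), at percentile 0.17 of the differences of all genes, and it was the only 1 of the 5 past 1.5-fold, against 41.9% of all genes. The other 4 lay between 0.75-fold for Cyfip1 and 1.39-fold for Fxr1. By tags the mRNA difference of Cyfip2 was smaller than by RNA-seq, as the values above show. RNA-seq counted fragments across the CDS and tags counted 3′ ends, and whether either method lost Cyfip2 reads was not tested. Fmr1 had 3 tags in adult cortex and 65 in the DIV14 culture, a ratio of 0.08 (0.02 to 0.25), while RNA-seq counted 175 and 47 reads of it.

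**Figure D2:**
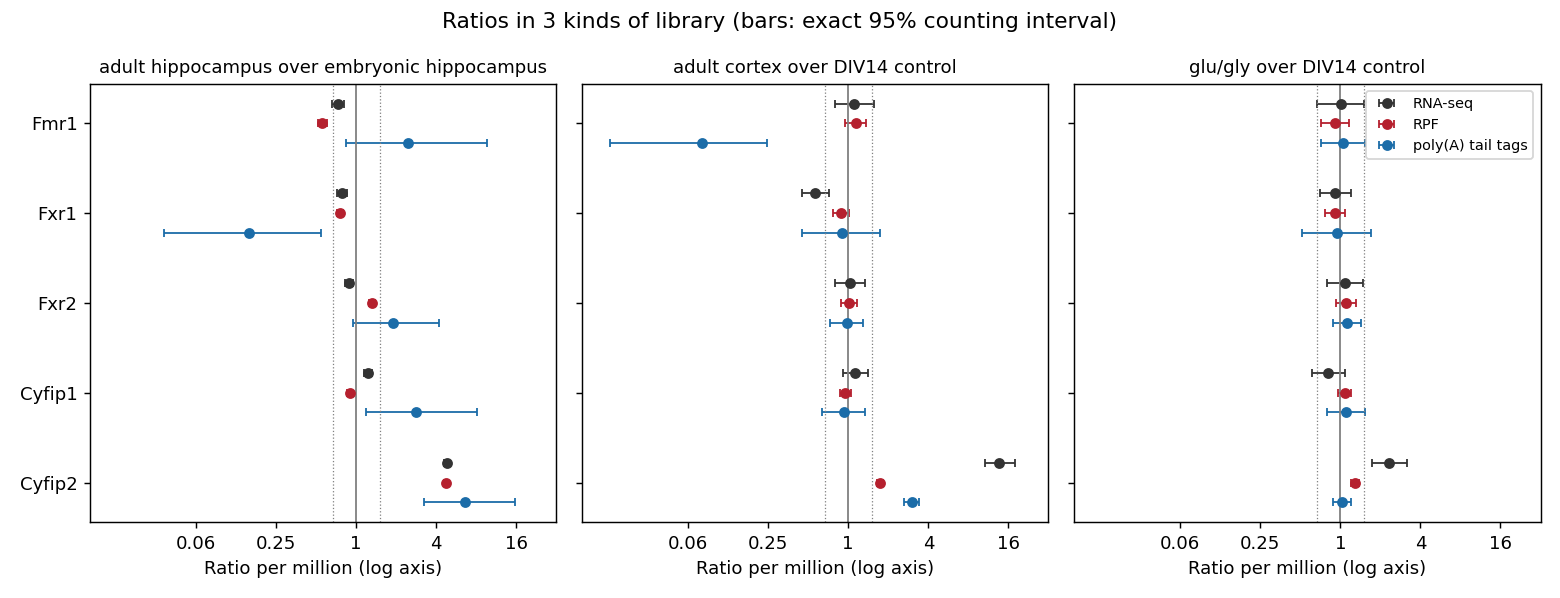
Ratio of each gene's share of reads or tags between 2 samples (log axis) for adult over embryonic hippocampus, adult cortex over the DIV14 control, and glu/gly over the DIV14 control; points are single libraries, bars exact 95% counting intervals, dotted lines 1.5-fold either way. Cyfip2 is past 1.5-fold in all 3 kinds of library in the first and second panels, and in RNA-seq alone in the third, where RNA-seq gave 2.34 and tags 1.04.

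The position of a gene among all TE values of its sample needs no scaling between samples. Cyfip2 was at percentiles 21.7 to 27.0 in the 3 tissues and at percentiles 87.9 to 98.2 in the 7 cultures. It thus ranked low in every tissue and high in every culture, with no overlap. TE has the RNA-seq count as its denominator, and that of Cyfip2 was 60 to 243 reads in these cultures. In the DIV14 control RNA-seq counted 60 reads of Cyfip2 and 102 of Cyfip1, whereas tags counted 373 and 86. RNA of both hippocampi was poly(A)-selected, and that of adult cortex was depleted of ribosomal RNA. The part of RNA-seq counting and RNA preparation in the ranks of Cyfip2 was not tested. Cyfip1 lay between percentile 42.8, in adult cortex, and 77.8, in embryonic hippocampus, and was above the middle of the genes in 9 of 10 samples. The fragile X family lay mostly below it. Fmr1 was at percentiles 8.18 to 55.1 and below the middle in 9 of 10 samples, Fxr1 at 12.9 to 42.0 and Fxr2 at 16.1 to 39.5, both below the middle in all 10.

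**Figure D3:**
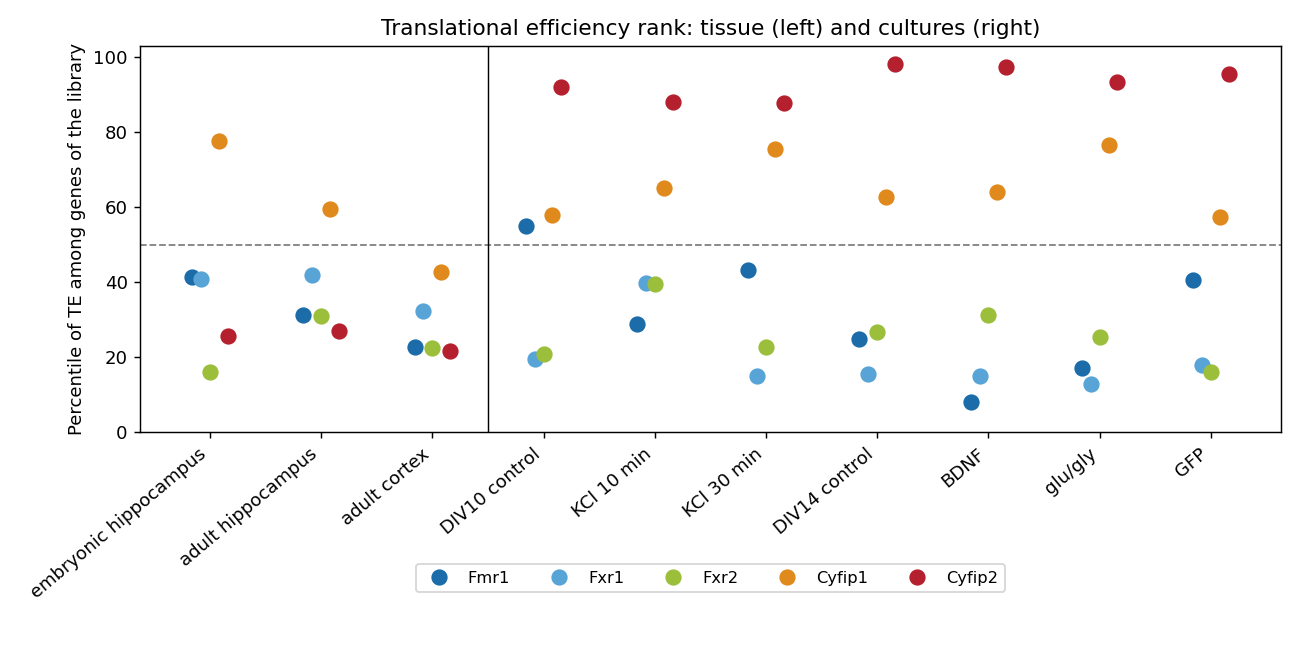
Percentile of each gene's TE among all genes with a TE in the same sample, for the 3 tissues (left of the line) and the 7 cultures with assigned ribosome-profiling libraries (right), 1 library per assay; the dashed line is the median gene. Cyfip2 lies at 21.7 to 27.0 in tissue and at 87.9 to 98.2 in culture, with RNA-seq counts as the denominator of TE, while Fxr1 and Fxr2 stay under 50 in all 10 samples.

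Stimulation of the DIV14 cultures left most values of the 5 genes within 1.5-fold. With BDNF, a neurotrophin, none of the 5 passed this threshold in RNA-seq, against 5.76% of all genes, and none among RPFs, against 2.4%. The largest RNA ratio was that of Fmr1 at 1.40 (0.94 to 2.09), from 47 and 62 reads, and its RPFs stood at 0.87 (0.69 to 1.08). TE of Fmr1 was 0.62-fold (0.40 to 0.97), the only 1 of the 5 past 1.5-fold against 7.74% of all genes. Cyfip1 and Cyfip2 had RNA ratios of 0.85 and 1.22, both with intervals that include 1. Of the 4 genes with at least 50 tags in both samples none differed by 10 nt or more in tail length, against 15.3% of all genes.

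With glu/gly, which activates glutamate receptors, Cyfip2 mRNA stood at 2.34-fold of the control (1.73 to 3.20), from 60 and 166 reads, at percentile 99.4 of all genes. It was the only 1 of the 5 past 1.5-fold, against 10.6% of all genes. Cyfip2 RPFs were at 1.29-fold (1.21 to 1.38) and its tags at 1.04-fold (0.89 to 1.21), from 373 and 297 tags, an interval that includes 1. No RPF ratio of the 5 was past 1.5-fold, against 3.64% of all genes. TE of Cyfip2 was 0.55-fold (0.41 to 0.74), the only 1 past 1.5-fold against 12.6% of all genes. Fmr1, Fxr1, Fxr2 and Cyfip1 had RNA ratios between 0.81 and 1.08, all with intervals that include 1. Of 4 tails compared none differed by 10 nt, against 23% of all genes. That of Fmr1 was longer by 8.16 nt, at percentile 95.7, while the median difference of all genes was -4.68 nt. Relative to this median the Fmr1 tail was longer by 12.8 nt, past 10 nt, from 65 and 52 tags.

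KCl depolarises neurons. After 10 min none of the 5 mRNAs was past 1.5-fold relative to the DIV10 control, against 3.78% of all genes, and Fmr1 came closest at 1.46 (1.05 to 2.04), from 95 and 62 reads in libraries of unequal depth, and with the authors' RPM it was past the threshold at 1.64-fold. No RPF ratio passed, against 13.4% of all genes. TE of Fmr1 was 0.61-fold (0.43 to 0.86), the only 1 past 1.5-fold against 21.6% of all genes. After 30 min none passed in RNA-seq, against 14.9% of all genes, among RPFs, against 13.1%, or in TE, against 26.8%. Fxr1 mRNA was at 1.37 (1.15 to 1.63) and Cyfip1 mRNA at 0.75 (0.62 to 0.89). With the authors' RPM, which refers to a larger total, these 2 ratios were 0.97 and 0.53, and that of Cyfip2 moved from 0.88 to 0.62.

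Tail lengths after KCl could be compared for Fxr2, Cyfip1 and Cyfip2. The mean tail of Fxr2 was 119.5 nt in the DIV10 control, 130 nt after 10 min and 141.7 nt after 30 min, from 53, 63 and 83 tags. These differences of 10.4 and 22.2 nt were past 10 nt, the latter at percentile 99.4 of all genes, and Fxr2 was the only 1 of the 3 past it at either time, against 15.4% of all genes after 10 min and 16% after 30 min. Cyfip1 differed by 0.23 and 6.23 nt and Cyfip2 by -6.21 and 5.52 nt. Tail lengths in these single libraries have no error, and Fxr2 had fewer than 100 tags in each.

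The DIV10 and DIV14 controls belong to separate stimulation experiments, so days in vitro and experiment cannot be told apart. At DIV10 Cyfip1 mRNA was 1.58-fold (1.27 to 1.98) and Cyfip2 mRNA 1.73-fold (1.30 to 2.34) that of DIV14, so 2 of the 5 were past 1.5-fold against 15.1% of all genes. With the authors' RPM the Cyfip1 ratio was 1.43, no longer past 1.5-fold, and the Cyfip2 ratio 1.57. Cyfip1 tags stood at 1.20 (0.85 to 1.69), an interval that includes 1. Cyfip1 RPFs were 1.52-fold (1.40 to 1.65), the only 1 past 1.5-fold against 18.2% of all genes while Fmr1 RPFs fell just short of it (counting interval 1.27 to 1.77) and Cyfip2 RPFs stood at 0.87 (0.83 to 0.93). TE was past 1.5-fold for Cyfip2, at 0.49-fold (0.37 to 0.66), and for Fmr1, at 1.70-fold (1.15 to 2.498), against 10.2% of all genes. By tags Cyfip2 stood at 0.81 (0.68 to 0.98), on the other side of 1 from its RNA-seq ratio. Among 3 tails compared, that of Fxr2 differed by -16.6 nt at DIV10, the only 1 past 10 nt against 34% of all genes. The median difference of all genes was -6.93 nt, and relative to it the Fxr2 tail differed by -9.67 nt, under 10 nt.

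The GFP culture was set beside the untransduced DIV14 control. The methods describe 2 culture batches without saying which samples each held, so transduction and batch cannot be told apart. Cyfip2 mRNA stood at 1.72-fold (1.23 to 2.43), from 60 and 91 reads, the only 1 of the 5 past 1.5-fold against 9.87% of all genes. With the authors' RPM the ratio was 1.47, no longer past 1.5-fold. Its RPFs were at 1.26 (1.18 to 1.35) and its tags at 0.97 (0.79 to 1.18). No RPF ratio of the 5 was past 1.5-fold, against 5.67% of all genes, and no TE difference, against 12.8%. The Cyfip2 tail, the only 1 with at least 50 tags in both, differed by -10.8 nt with GFP and so was past 10 nt, against 41.1% of all genes. The median difference of all genes was -8.45 nt, and relative to it the Cyfip2 tail differed by -2.34 nt, under 10 nt. Cyfip2 RNA-seq counts of the DIV14 control were the lowest of all 12 samples, and this library is the base of the BDNF, glu/gly, DIV10, GFP and cortex ratios.

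Relative to GFP alone no member was past 1.5-fold in RNA-seq, against 8.87% of all genes for miR-1 and 6.47% for miR-155. Cyfip1 had the lowest ratio with both, 0.72 (0.55 to 0.94) with miR-1 and 0.74 (0.59 to 0.94) with miR-155, from 97 reads in the shared GFP library. By tags it stood at 1.06 (0.59 to 1.93) and 0.60 (0.30 to 1.17). Fmr1, Fxr1, Fxr2 and Cyfip2 had RNA ratios between 0.81 and 1.08, with intervals that include 1. The Cyfip2 tail differed from GFP by -3.03 nt with miR-1 and 3.55 nt with miR-155, both under 10 nt, against 20% and 15.3% of all genes past it.

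Poly(A)-tail lengths are given for genes with at least 50 tags in a library. Fxr2 had the longest tails of the members with 50 tags in each of these cultures, with means of 119.5 to 141.7 nt in the 8 cultures in which it had at least 50 tags, at percentiles 89.6 to 99.6 of all genes. In adult cortex its mean was 120.1 nt, at percentile 96.1. Cyfip1 tails were near the middle to upper part of the genes, at 109 to 116 nt and percentiles 49.0 to 77.2 in 6 cultures. Cyfip2 tails were at 94.5 to 112 nt and percentiles 31.5 to 67.6 in 9 cultures and at 95.8 nt in adult cortex. Fmr1 reached 50 tags in 4 cultures, with means of 95.4 nt in the DIV14 control, 102.8 with BDNF, 103.6 with glu/gly and 119.9 after 30 min of KCl, at percentiles 9.58 to 86.2. Fxr1 had fewer than 50 tags in every culture and tissue, from 4 to 29. Against the DIV14 control, tails in adult cortex differed by -16.1 nt for Fxr2 and -12.6 nt for Cyfip2, 2 of 2 past 10 nt against 63% of all genes, and relative to the median difference of all genes these values were -3.69 and -0.21 nt.

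**Figure D4:**
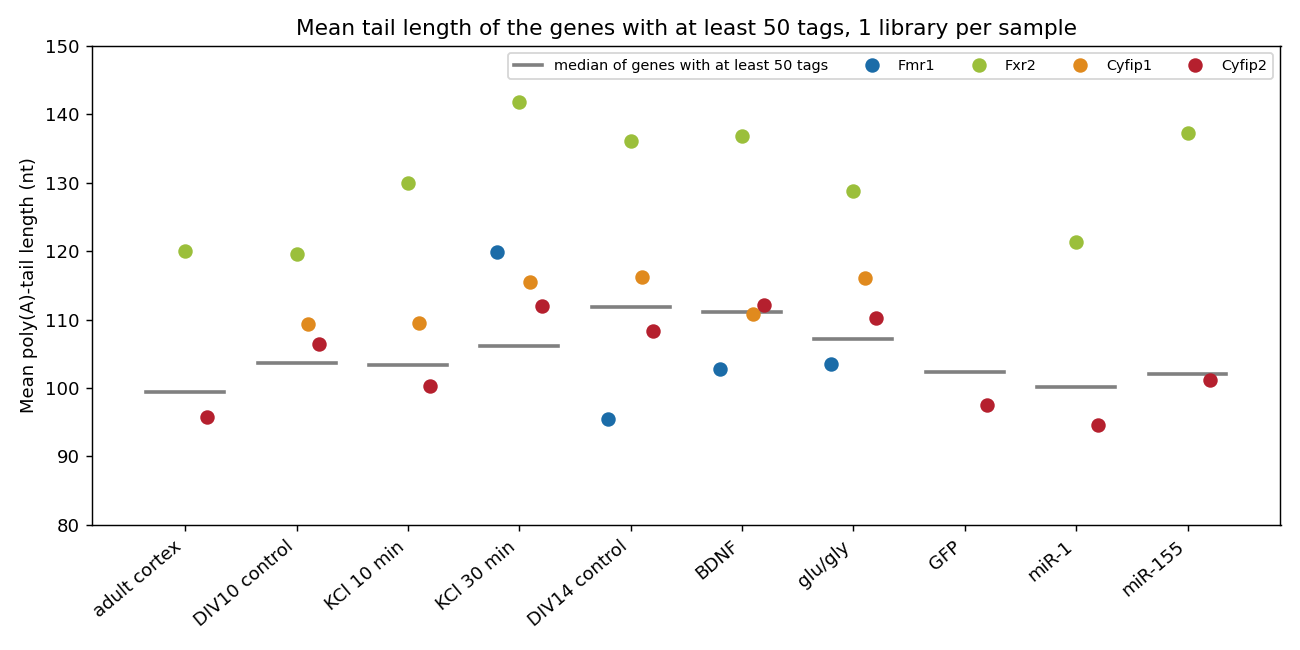
Mean poly(A)-tail length in nt of each gene with at least 50 tags, in adult cortex and the 9 cultures by TAIL-seq, 1 library each; grey lines are the median over genes with at least 50 tags, and the axis starts at 80 nt. Fxr2 lies above the other genes wherever it was measured, at 119.5 to 141.7 nt, and Cyfip2, at 94.5 to 112 nt in the cultures, stays near the grey line.

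The light experiment had 4 mice per group and allowed a test. Tags of the visual cortex were tested with edgeR's quasi-likelihood test and mean tails with limma, over all genes. The 6 activity-induced genes all rose, by 2.84 to 4.52 on the log2 scale. None of the 5 members changed at an adjusted p under 0.05, against 1.34% of 9554 genes tested. In normalized tags per 1000000 tags (CPM), Fmr1 was at 82.8, 102, 84.8 and 101.6 in the mice at 0 h and at 109.9, 108.5, 112.6 and 107 after 1 h of light. All 4 light-exposed mice lay above the 4 dark mice, a lack of overlap found for 5.67% of the genes tested. The means were 92.8 ± 10.4 (SD, n = 4) and 109.5 ± 2.38. The log2 fold change was 0.23 with a standard error of 0.11, and edgeR's adjusted p was 0.555. Taken alone, an exact two-sided permutation test gave p = 0.0286, which is the smallest value that 4 against 4 mice can reach, and it is not adjusted for the 5 genes.

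Fxr1 had 28.4 ± 8.48 CPM at 0 h and 30.3 ± 4.14 after light (SD, n = 4 each, log2 fold change 0.08, edgeR adjusted p = 0.9497). Fxr2 had 108.8 to 157.8 and 128.7 to 152 (0.16, adjusted p = 0.755 by edgeR). The groups overlapped for both of these paralogs. Cyfip1 had 68.0 to 99.9 and 74.9 to 87.6 (0.00, adjusted p = 0.998 by edgeR). Cyfip2 was the most abundant of the 5 by this count, at 1588 ± 189 and 1670.4 ± 109 (SD, n = 4 each), with a log2 fold change of 0.07, a standard error of 0.09 and an adjusted p of 0.878 by edgeR. Its dark group included 1 mouse at 1304, below the other 3 at 1671 to 1690.2. Cyfip2 tags outnumbered Cyfip1 tags by 13.1- to 24.8-fold in the 8 mice, with a median of 20.6.

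Tail lengths in visual cortex were tested for the 4 genes with at least 50 tags in each mouse. None passed an adjusted p under 0.05, against 0.185% of 4321 genes, that is 8 genes, all with longer tails after light. Mean tails after light were longer by 7.21 nt for Fmr1 (standard error 6.89), by 9.51 nt for Fxr2 (6.64), by 0.88 nt for Cyfip1 (7.11) and by 0.20 nt for Cyfip2 (5.08), with limma adjusted p of 0.999 for the first 3 and 1.00 for Cyfip2. The median change over all genes was 3.75 nt, and the library medians ranged from 77.5 to 97.5 nt among the mice, so whole libraries shifted together. Relative to the median of its library, the Cyfip2 tail was at 7.43, 7.85, 6.66 and 7.52 nt in the mice at 0 h and at 4.03, 1.64, 3.21 and 5.33 nt after light. The dark mice all lay above the light-exposed mice, and by this measure the groups did not overlap for 6.06% of the genes tested. The means were 7.36 ± 0.50 and 3.55 ± 1.55 (SD, n = 4). The difference of -3.81 nt had a standard error of 1.38 and an adjusted p of 0.236 by limma, and p = 0.0286 by the exact two-sided permutation test, again the smallest possible and not adjusted.

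Tails within visual cortex, measured by another method than those of the cultures, separated Fxr1 from Fxr2. Fxr2 had the longest mean tail of the 5 in 6 of 8 mice, from 84.5 to 116.5 nt at percentiles 74.3 to 96.7. Fxr1 had the shortest in 8 of 8 mice, from 60.2 to 87.6 nt on 25 to 143 tags, and in the 3 mice with at least 50 tags it was at percentiles 1.30 to 4.03 of all genes. These paralogs, which share 69.0% of their aligned coding bases, thus lay towards opposite ends of the tail distribution. Cyfip2 was at percentiles 56.4 to 79.0, Cyfip1 at 23.9 to 69.5 and Fmr1 at 25.5 to 84.1.

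**Figure D5:**
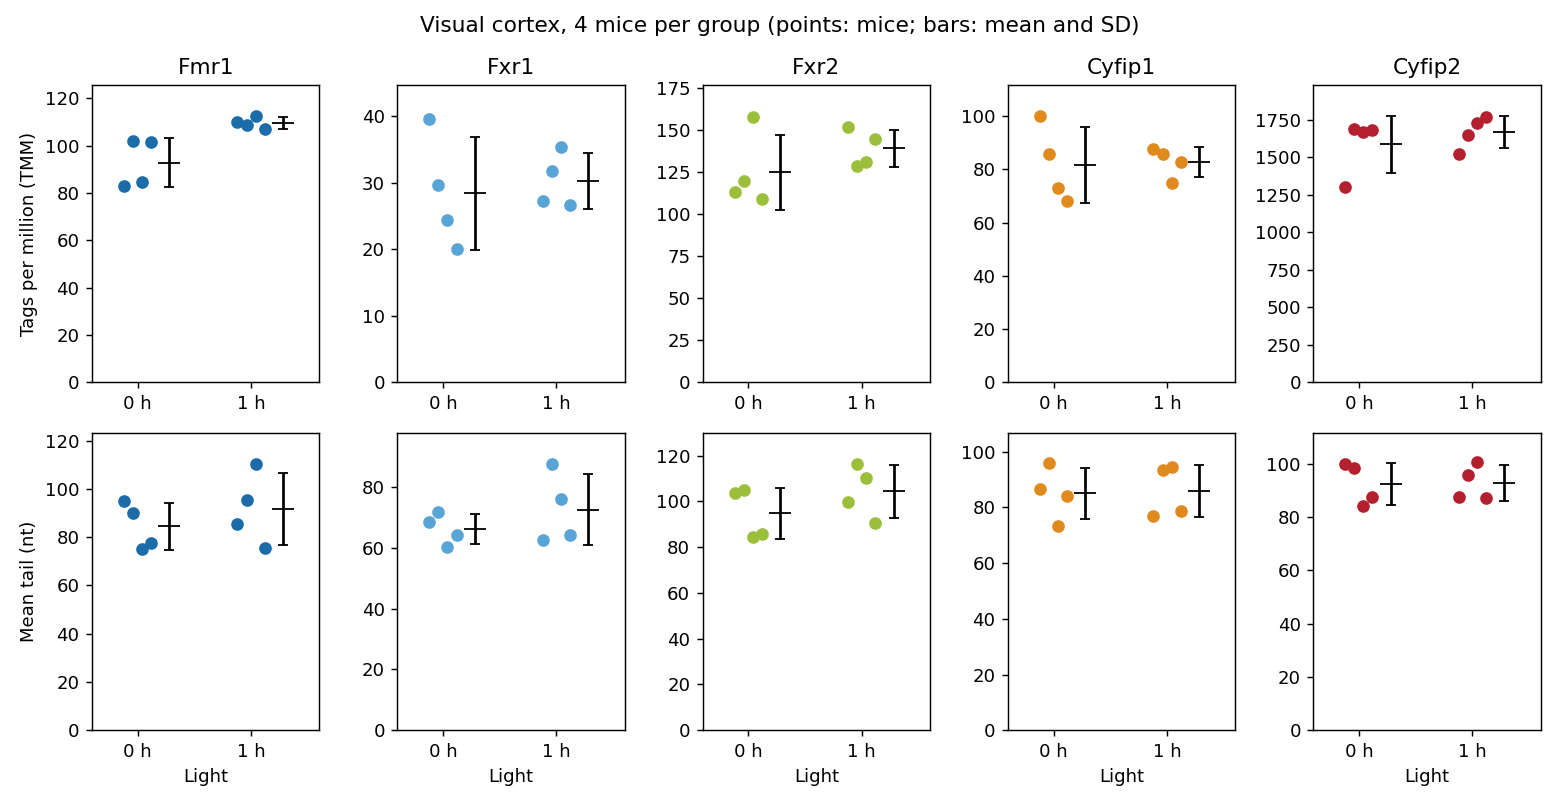
Visual cortex of mice kept in the dark (0 h) or exposed to light for 1 h, 4 mice per group: normalized tags per 1000000 tags (top) and mean poly(A)-tail length in nt (bottom) for each gene; points are mice and bars the mean with SD, and every axis starts at 0. Fmr1 tags do not overlap between the groups (82.8 to 102 and 107 to 112.6), and no gene passed the adjusted threshold in either measure.

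Genes that work with these proteins were counted as lists. Of the WAVE complex, the actin regulator that CYFIP proteins enter, 7 of 10 genes could be compared between adult and embryonic hippocampus, where 4 were past 1.5-fold higher in the adult and 0 lower, with a median ratio of 2.35 against 0.89 for all genes. Of all genes compared 55.6% were past 1.5-fold either way, and the counts of the other lists in this comparison stand against the same share. Wasf1, the neuronal WAVE protein, stood at 4.06-fold and Wasf3 at 2.78-fold. Of 9 genes of the mGluR pathway, through which group 1 glutamate receptors engage FMRP, 4 were higher and 0 lower (median 1.25), led by Agap2 at 12.1-fold and the receptor gene Grm5 at 5.94-fold. Of 8 mRNAs known as FMRP targets 5 were higher and 2 lower (median 3.68), with Camk2a, a kinase of the synapse, at 146.6-fold and the scaffold gene Dlgap3 at 8.99-fold. The lists of RNA-binding partners and of cap-binding factors lay lower. Of 15 FMRP protein partners 3 were higher and 8 lower (median 0.66), with Purb at 4.71-fold and Pura at 3.82-fold furthest from 1, and of 5 cap-binding genes 1 was higher and 3 lower (median 0.66), with Eif4g2 at 0.29-fold and Eif4e2 at 0.48-fold furthest.

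In adult cortex over the DIV14 control, 1 of 7 WAVE genes was past 1.5-fold, Wasf1 at 4.74-fold (3.14 to 7.49), and the list had a median of 1.12 against 0.86 for all genes, of which 50.6% were past 1.5-fold either way. Of 10 FMRP targets 8 were higher and 2 lower (median 1.98), with Camk2a at 6.08 and Map1b, a microtubule protein gene, at 2.77. In TE 2 of the same 10 were higher and 6 lower, against 41.9% of all genes either way, with a median of -0.78 on the log2 scale relative to that of all genes. TE has the same RNA-seq counts as its denominator, so it is not separate from the RNA ratios. Of 8 mGluR genes 5 were higher and 2 lower (median 1.62), led by the phospholipase genes Plcb4 at 3.09 and Plcb1 at 2.70. Cap-binding genes had 1 of 4 higher, Eif4g3 at 4.18-fold, and FMRP partners had 1 of 9 higher, Purb at 1.62-fold, and 1 lower, Caprin1 at 0.64-fold.

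With glu/gly, 4 of 9 FMRP targets were past 1.5-fold higher and 0 lower (median 1.44 against 0.97 for all genes), led by the scaffold gene Shank3 at 2.404-fold (1.65 to 3.58) and Map1b at 2.07-fold (1.88 to 2.29). Of all genes 10.6% were past 1.5-fold either way. In TE 0 of the 9 targets were higher and 4 lower, against 12.6% of all genes either way, with a median of -0.56 on the log2 scale relative to that of all genes, and the values of Shank3 and Map1b were -1.54 and -0.997. The RNA-seq counts that raise an RNA ratio also lower TE as its denominator, so these TE values are not a separate result. Of 8 mGluR genes 2 were higher, Plcb1 at 1.58 (1.27 to 1.97) and Gnaq at 1.51 (1.003 to 2.31). Among WAVE genes 1 of 7 was higher, Wasf1 at 1.94-fold (1.18 to 3.27), as Cyfip2 was. Cap-binding genes had 1 of 5 higher, Eif4g3 at 1.77 (1.28 to 2.47), and FMRP partners 1 of 10 lower, Tdrd3 at 0.66 (0.39 to 1.11). In the other stimuli and the miRNA cultures 0 to 3 genes of any list were past 1.5-fold. Of all genes 5.76% were past it with BDNF, 3.78% and 14.9% after 10 and 30 min of KCl, 8.87% with miR-1 and 6.47% with miR-155. Examples were Kcnd2 at 1.63 (0.97 to 2.79) and Shank3 at 1.62 (1.06 to 2.51) with BDNF. Others were Purb at 1.59 (1.12 to 2.25) after 10 min of KCl, Plcb1 at 1.91 (1.62 to 2.25) after 30 min, and Camk2a at 2.12 (1.44 to 3.22) with miR-1. Camk2a had 32 reads in the shared GFP library, where it stood at 0.49-fold (0.31 to 0.75) of the DIV14 control. With miR-155 it was at 1.499 (1.03 to 2.24) of that library. Examples below 1 were Gna11 at 0.62 (0.47 to 0.82) after 30 min of KCl and Plcb4 at 0.63 (0.42 to 0.96) with miR-1. In the visual cortex 1 FMRP target of 11 tested rose with light, Arc, which is itself activity-induced (log2 fold change 3.29, standard error 0.43, adjusted p = 2.5e-05 by edgeR), and none of 7 WAVE, 7 cap-binding, 13 partner and 8 mGluR genes passed. No tail of these lists passed in limma.

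The 3 genes most like each member were taken as those with the highest Pearson r of log2 level with it over the 12 RNA-seq libraries, among 2827 genes with at least 10 RPM in all of them. These libraries share preparation and depth differences between tissue and culture, so r is a description only. Cyfip2 was most like Mycbp2 (0.97), Abca2 (0.97) and Madd (0.97), and Fxr1 most like Psmc6 (0.96), Cops3 (0.95) and Hspa4 (0.95). Both thus had close companions, and their own patterns ran opposite, with r = -0.82. The nearest genes to Fxr2 were Neurod6 (0.86), Supt5 (0.84) and Ubtf (0.84), those to Cyfip1 Aktip (0.80), Myh9 (0.80) and Ptprz1 (0.78), and those to Fmr1 Neurl4 (0.75), Jund (0.75) and Cpsf1 (0.72). Within the families r was low, at 0.18 for Cyfip1 with Cyfip2 and -0.20 to -0.22 among the fragile X genes.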

How the data were processed

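For RNA-seq and ribosome profiling the authors deposited read counts per gene and RPM values. Per their methods, reads were mapped uniquely (STAR 2.4.2 and bedtools with mm10 in the submitters' processing notes) and counted on the CDS of the longest transcript per gene without the first 50 nt. Their RPM refers to a total above the reads on the genes listed. The log2 TE values that the authors deposited were used as an alternative. For tails the authors deposited tag counts and tail lengths in nt from PAL-seq v2 (visual cortex, hippocampi) or TAIL-seq (cultures, adult cortex). The hippocampal lengths all lie in steps of 0.5 nt, so they were taken as medians and not compared with means, although a combined table of theirs labels the same values means. RNA of the hippocampi was poly(A)-selected, and RNA of adult cortex and 6 cultures was depleted of ribosomal RNA. Which 6 cultures, and how RNA of the other 3 was prepared, is not given in the sources used here. Depths are given above, and the counts set the precision through 95% intervals.

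Levels were reads per 1000000 reads on genes, with exact (Clopper-Pearson or Poisson) 95% intervals, where both samples had 10 RPM or more in RNA-seq. TE was the log2 ratio of RPM, with at least 1 RPF. Tails needed 50 tags. In the light experiment edgeR 4.0.16 (TMM, filterByExpr, quasi-likelihood) and limma 3.58.1 (trend on tags) were used in R 4.3.3, with Benjamini-Hochberg adjustment and DESeq2 1.42.0 as an alternative. Python 3.11.15 with pandas 2.3.3, numpy 2.4.6, scipy 1.17.1 and matplotlib 3.10.9 did the rest. The light fits were tested on simulated data. The simulated tails had noise drawn apart for each gene and no shift of whole libraries, so they do not cover the library shifts of the real tails. The labels of this experiment number its samples, and the authors describe them as separate mice. Pairs of its libraries differed by more than sampling noise (chi-square per degree of freedom 1.94 to 8.92).

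The members and lists were chosen with earlier results of these data known. The 5 members are all reported, and from each list, counts and up to 2 genes furthest from 1 past the threshold. Groups came from the labels. Of the RPF libraries 2 have labels that contradict each other about the miRNA and entered no comparison, 4 columns of the combined table of TE that match no single sample were not used, and neither was the combined table of the light experiment. Alternatives covered scaling, minimum counts, added counts, centring, other tests and left-out libraries.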

Additional observations from a re-analysis of the deposited data

Results flagged for a closer look

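In the dark group of the light experiment, 1 mouse stood apart in Cyfip2 tags. Mouse 1 had 1304 normalized tags per 1000000 (CPM), from 1906 tags, and the other 3 mice had 1671 to 1690.2. The gap of this mouse to its nearest neighbour was 0.951 of the whole range of the group, above Dixon's 95% critical value for 4 samples. In all, 20 groups of 4 mice were screened in this way, and chance alone marks about 1 in 20. The same mouse had the highest Cyfip1 level of its group, at 99.9 CPM.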

How the results depend on the processing

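Of the 55 RNA-seq ratios of the 5 genes, 7 were past 1.5-fold. This count became 13 with RPM as deposited and 16 with tail tags in place of reads, and 2 with a minimum of 30 RPM, under which fewer genes could be compared. With RPM as deposited, 2 of the 7 were no longer past it, Cyfip1 in DIV10 over DIV14 at 1.43 and Cyfip2 in GFP over the control at 1.47, and others were gained, such as Fmr1 at 0.58 and Fxr1 at 0.63 in adult over embryonic hippocampus. The count stayed at 7 with centring, with 0.5 reads added and without a minimum. With tags, 42 of the ratios and likeness values moved, 5 turned and 22 stayed the same. With RPM as deposited, 15 ratios moved and 40 stayed the same. A ratio is taken as moved when it left its counting interval. The Cyfip2 ratios that turned with tags were 0.81 for DIV10 over DIV14 and 0.97 for GFP over the control, and the likeness of Fmr1 to Neurl4, Jund and Cpsf1 turned to r = -0.69, -0.21 and -0.15. The cause was not tested. The 7 TE differences past 1.5-fold became 2 with a minimum of 30 RPM. Their number stayed within 1.5 times with the deposited TE or without subtracting the median. Without subtracting the median, however, 16 TE differences left their counting intervals and 29 did not. Of 22 tail differences 6 were past 10 nt, 3 relative to the median of all genes and 2 of those with at least 100 tags.

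In the light experiment, the 128 genes called in expression became 100 to 150 without 1 library. The 8 genes called in tail length became 19 with a minimum of 20 tags, 1 on the log2 scale, 52 after centring each library on its median, and 1 to 18 without 1 library, namely 18 without dark mouse 1, 14 without light-exposed mouse 4, 2 without light-exposed mouse 3, and 1 without dark mouse 2, 3 or 4 or light-exposed mouse 2. None of the 5 genes passed under any of these settings, with the lowest adjusted p of 0.236 for the centred Cyfip2 tail. The sample numbers do not pair the mice, since same-numbered deviations correlated at -0.20 to 0.03 for tag counts and -0.11 to 0.04 for mean tails. With the number as a replicate block 113 genes were called in expression and 1 in tail length.

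In the cultures Fmr1 had 37 to 167 and Cyfip2 60 to 416 RNA-seq reads, the embryonic tail library held 4 to 10 tags per member, and Fxr1 had under 50 tags in every culture and tissue.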

Other observations

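The 2 ribosome-profiling libraries without a group gave the following levels, in RPKM of RPFs. The first, with 817114 reads on genes, had 30.7 for Fmr1, 46.9 for Fxr1, 42.1 for Fxr2, 34.3 for Cyfip1 and 133 for Cyfip2. The second, with 6428048 reads, had 27.1, 41.4, 46.4, 40.6 and 136 in the same order of genes. In both, Cyfip2 had the highest level of the 5.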
